A study of Drosophila melanogaster with 11 samples.

Results

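Sorted intestinal stem cells (ISCs) were compared with sorted enteroblasts (EBs) under spen RNAi, to ask which differences between these progenitor types remain when both carry the hairpin. The libraries were chosen by label alone: 3 of SPEN-ISC and 3 of SPEN-EB, 6 of the 11 analysed. All libraries came from whole midguts of 5-day-old adult female Drosophila melanogaster carrying esg>GAL4, tubGAL80.ts, UAS-RFP and nre-GFP, a reporter of Notch activity named NRE-Venus in the methods. The SPEN groups also carried UAS-spen RNAi, whereas the WT groups (3 WT-ISC and 2 WT-EB libraries, used here for values side by side) did not. The transgenes were turned on by moving flies from 18°C to 29°C for 2 days. Diploid cells positive for RFP only were taken as ISCs, and cells positive for RFP and GFP as EBs. A single RNAi line was used (KK-108828), driven by esg-GAL4 in both cell types, so each sorted type also came from a gut in which the other type carried the hairpin.

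The adult fly midgut is renewed by ISCs, which divide to give a new stem cell and a committed daughter. The ligand Delta on the stem cell activates Notch in the EB, which switches on genes of the E(spl) complex and goes on to become an absorptive enterocyte, whereas hormone-secreting enteroendocrine cells arise through a separate branch that needs the proneural factor Scute. Spen is a nuclear RNA-binding protein with RNA recognition motifs and a SPOC domain.

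Depth was similar across libraries, with 28206027 to 30971075 counts on exon bins in SPEN-ISC and 28344962 to 31587444 in SPEN-EB. Between 5437 and 6836 genes of 14595 reached 1 FPKM (fragments per kilobase of exon, scaled to the mapped fragments of the library) in a SPEN library. Values per library, their sums and statements that groups are apart refer to FPKM as deposited, before the scaling used in the tests. Genes of cytoplasmic ribosomal proteins summed to 624195 to 770604 FPKM in SPEN-ISC and 700391 to 832806 FPKM in SPEN-EB. The ratio of coverage at 3' ends to coverage at 5' ends, a sign of RNA quality, was 0.787 to 0.888 in SPEN-ISC and 0.771 to 1.005 in SPEN-EB, with SPEN-EB replicate 3 the highest. Its part in the differences was not tested beyond a fit with this ratio as a covariate. No source states that the replicates came from separate cultures of flies beyond calling them biological, so p-values measure the spread between these libraries.

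The targeted gene was examined first. The hairpin itself maps to exon bin E014 of spen (chromosome 2L, 187482 to 199575 in BDGP5, plus strand), so reads from the transgene can fall there. Bin E014 held 1088, 613 and 2160 counts in SPEN-ISC and 720, 393 and 406 counts in SPEN-EB. In the WT libraries the same bin held 6, 101 and 39 counts in ISCs and 7 and 12 counts in EBs, so every SPEN library stood above every WT library, as the labels require. The other bins of spen, which lie outside the hairpin, held 143, 219 and 509 counts in SPEN-ISC and 454, 87 and 113 counts in SPEN-EB, overlapping between the cell types. In WT these bins held 129, 222 and 128 counts in ISCs and 54 and 66 in EBs, so a lower level of spen RNA outside the hairpin was not seen in the SPEN libraries. Between SPEN-ISC and SPEN-EB, the FPKM of spen gave a log2 fold change of 0.57 ± 0.43 (SE, limma, adjusted p = 0.998).

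The cell type labels were then checked against markers. Delta (Dl), the Notch ligand of stem cells, measured 1.05, 0.579 and 7.43 FPKM in SPEN-ISC and 0.155, 0.00859 and 0.0959 FPKM in SPEN-EB. The groups did not overlap, but Dl did not reach the filter of 1 FPKM in 3 libraries and was not tested. The stem cell factor charlatan (chn) was likewise apart, with 0.485, 0.579 and 2.10 FPKM against 0.140, 0.0295 and 0.0549 FPKM, and was not tested. Sanpodo (spdo), a regulator of Notch trafficking, measured 5.94, 1.13 and 8.24 FPKM in SPEN-ISC and 0.587, 0.239 and 0.950 FPKM in SPEN-EB. All 3 SPEN-ISC libraries were above the SPEN-EB libraries, with SPEN-ISC replicate 2 nearest to them. The difference did not pass the threshold (limma, log2 fold change 1.88 ± 0.51, adjusted p = 0.188), although it did without SPEN-ISC replicate 2 (adjusted p = 0.0485). In the other fits that left out 1 library, the adjusted p was 0.24 to 0.698.

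The summed markers of EBs were not higher in the fraction labelled EB. The 13 EB markers (the E(spl) genes, klu and Su(H)) summed to 3175, 3920 and 5112 FPKM in SPEN-ISC and 2892, 2227 and 2340 FPKM in SPEN-EB, so the 3 RFP-only libraries were the higher before scaling. After the scaling used in the tests the sums overlapped, at 2555, 4762 and 3758 against 3070, 3008 and 2272. In WT the same markers summed to 1348, 1716 and 1168 FPKM in WT-ISC and 1079 and 1051 FPKM in WT-EB before scaling. Scaled over all 11 libraries, the WT sums overlapped, at 1832, 1185 and 1033 against 2053 and 1547. None of the 7 markers that could be tested between SPEN-ISC and SPEN-EB was called, beside 0.707% of all genes tested. At that share, so few markers could hold no call, and the count says little about them. E(spl)mgamma-HLH, of the same list, was apart in the direction of the labels (log2 fold change -1.63, adjusted p = 0.058). The progenitor factor escargot (esg), whose promoter drives GAL4 in both types, measured 13.8, 6.41 and 85.8 FPKM in SPEN-ISC and 30.0, 5.29 and 12.6 FPKM in SPEN-EB. The groups overlapped, and the direction of esg turned when SPEN-ISC replicate 3, its highest library, was left out (log2 fold change 0.32 with all libraries and -0.55 without it). Notch (N), the receptor, also overlapped, with 0.729, 0.390 and 4.37 FPKM against 1.45, 0.178 and 0.447 FPKM. The names SPEN-ISC and SPEN-EB are therefore used below for the sorted fractions as labelled.

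Of 6225 genes tested, 44 (0.707%) differed between SPEN-ISC and SPEN-EB at an adjusted p under 0.05 (limma, Benjamini-Hochberg). 35 genes (0.562%) were higher in SPEN-ISC and 9 (0.145%) in SPEN-EB. Genes of enteroendocrine peptides and of mitosis led the first group, and genes without a studied name led the second. All 44 had groups that did not overlap, as did 664 of the 6225 genes (10.7%), 534 (8.58%) with SPEN-ISC higher and 130 (2.09%) with SPEN-EB higher. These counts of groups apart were taken before scaling, where 4779 of the 6225 genes had a positive fold change, against 2853 after it. The excess towards SPEN-ISC therefore includes this shift of the whole scale. At an unadjusted p under 0.05 there were 406 genes (6.52%). The tests were run on log2(FPKM + 0.5) after scaling of the libraries, so a fold change understates the change of genes near the floor.

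The count of 44 depended on which libraries were used. Without SPEN-ISC replicate 1 it fell to 15 and without SPEN-EB replicate 3 to 27, whereas without SPEN-ISC replicate 3 it was 65. 11 of the 44 genes passed in each of the 6 fits that left out 1 library: CG13565, Ast-C, tap, bw, CG17778, cdc2, CG43218 and Pen, higher in SPEN-ISC, and CG15629, CG30090 and CG17145, higher in SPEN-EB.

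**Figure D1:**
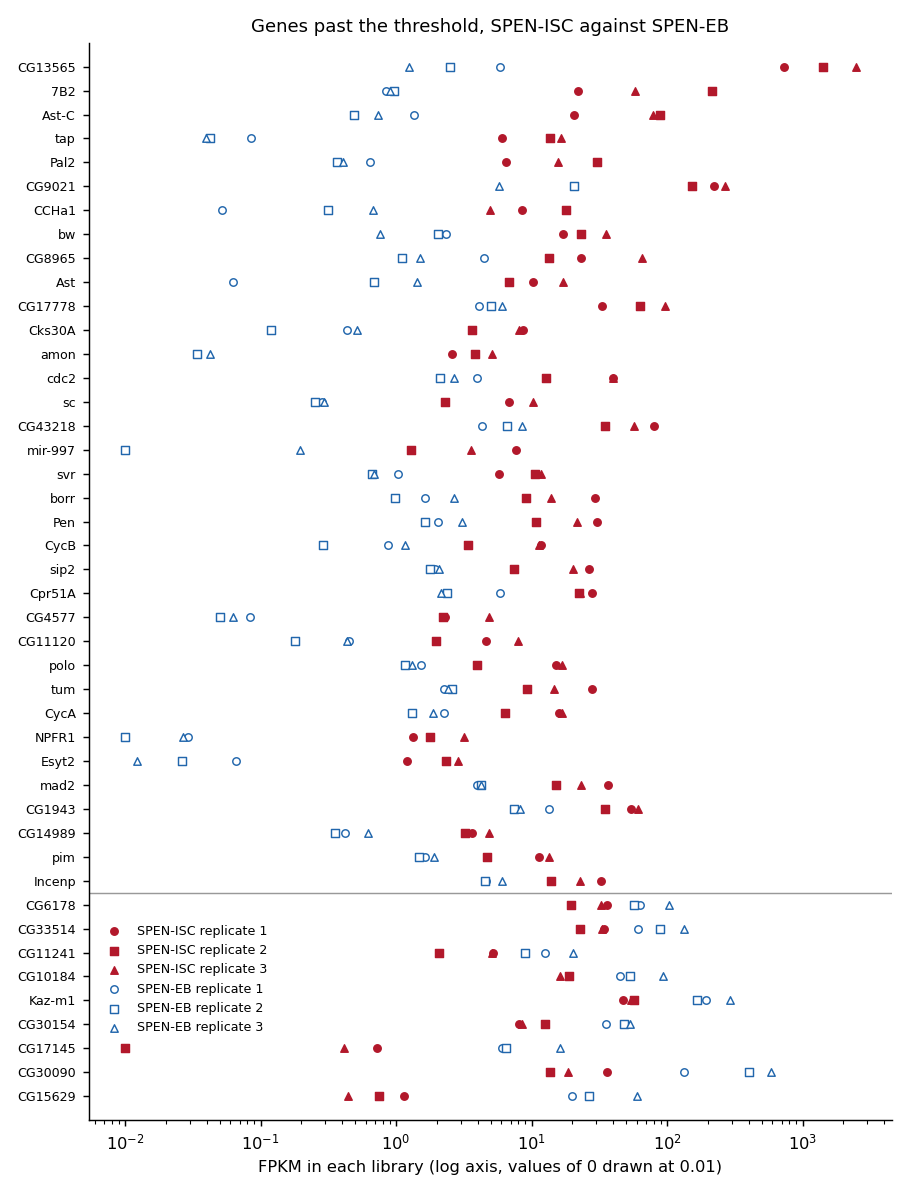
FPKM of the 44 genes past the threshold in each of the 6 libraries, on a log axis, ordered by fitted log2 fold change (red filled symbols, SPEN-ISC; blue open symbols, SPEN-EB; circle, square and triangle for replicates 1, 2 and 3). The 35 genes above the grey line were higher in SPEN-ISC and the 9 below it in SPEN-EB, and for CG13565 the SPEN-ISC libraries sit at 736 to 2478 FPKM against 1.24 to 5.83 FPKM.

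The called gene with the largest difference encodes a peptide hormone of the gut. CG13565, the gene of the neuropeptide precursor orcokinin (chromosome 2R, 19834482 to 19836400, minus strand), measured 736, 1414 and 2478 FPKM in SPEN-ISC. In SPEN-EB it measured 5.83, 2.49 and 1.24 FPKM. The lowest SPEN-ISC library was far above the highest SPEN-EB library (log2 fold change 8.44 ± 0.57, adjusted p = 0.000144). CG13565 was 1 of only 2 genes, with CG15629, that passed under every one of the 19 alternatives tried.

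Allatostatin C (Ast-C, chromosome 2L, 11076165 to 11081402), a peptide hormone, measured 20.5, 88.6 and 78.3 FPKM in SPEN-ISC against 1.35, 0.489 and 0.735 FPKM in SPEN-EB. SPEN-ISC replicate 1 was the lowest of its group and still above all SPEN-EB libraries (log2 fold change 5.08 ± 0.59, adjusted p = 0.0086). Allatostatin A (Ast) measured 10.3, 6.78 and 17.02 FPKM against 0.0627, 0.689 and 1.43 FPKM (log2 fold change 3.12 ± 0.48, adjusted p = 0.0173). CCHamide-1 (CCHa1), a peptide of the gut and brain, measured 8.56, 18.1 and 4.94 FPKM against 0.0522, 0.313 and 0.680 FPKM. Its groups were apart, and its log2 fold change was 3.39 ± 0.59 (adjusted p = 0.0293). The call was lost for Ast without SPEN-ISC replicate 1, and for CCHa1 without SPEN-ISC replicate 1 or 2 or SPEN-EB replicate 1.

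Other hormones were apart but did not pass. Neuropeptide F (npf) measured 77.9, 2553 and 199 FPKM in SPEN-ISC and 8.86, 7.11 and 2.25 FPKM in SPEN-EB. SPEN-ISC replicate 2 held by far the most npf, and the spread within SPEN-ISC was wide (log2 fold change 5.57 ± 1.42, adjusted p = 0.245). Of the 19 alternatives tried, npf passed in 4, among them the fit without SPEN-ISC replicate 2 (log2 fold change 3.91, adjusted p = 0.0388). The same library was the highest for tachykinin (Tk), with 40.3 FPKM against 1.35 and 5.91 FPKM in the other SPEN-ISC libraries and 0.824, 0.284 and 0.185 FPKM in SPEN-EB (log2 fold change 2.95, adjusted p = 0.624). It was again the highest for Dh31, a diuretic hormone, with 23.4 FPKM against 0.622 and 2.16 FPKM, and 0.373, 0.155 and 0 FPKM in SPEN-EB, which was not tested. CCHamide-2 (CCHa2) measured 15.3, 34.1 and 11.3 FPKM against 3.72, 3.21 and 2.35 FPKM (log2 fold change 2.10, adjusted p = 0.154). Nplp2, listed as a neuropeptide-like precursor, overlapped, with 12.6, 92.5 and 15.3 FPKM against 41.5, 12.8 and 17.1 FPKM.

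Of 13 listed peptide hormones, 8 passed the filter on low values and 4 were called, all higher in SPEN-ISC, beside 0.562% of all genes tested. A gene at 1 FPKM in 3 libraries passes this filter, so genes high in only 1 group enter the test through that group. The median log2 fold change of the 8 was 3.25, beside -0.04 over all genes tested, and it lay between 2.75 and 3.56 when any 1 library was left out. The number called was then 2 to 5, with 2 without SPEN-ISC replicate 1.

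Genes of 4 proteins that turn hormone precursors into active peptides were also higher in SPEN-ISC. 7B2, the partner protein of the convertase Amontillado, measured 22.1, 216 and 58.1 FPKM in SPEN-ISC and 0.847, 0.961 and 0.895 FPKM in SPEN-EB (log2 fold change 5.29 ± 0.85, adjusted p = 0.0377). The SPEN-EB libraries were close to each other, whereas the SPEN-ISC libraries spread widely, and the call was lost without SPEN-ISC replicate 3 or without any 1 of the SPEN-EB libraries. The convertase itself, amon, measured 2.58, 3.83 and 5.08 FPKM against 0.0341, 0.0340 and 0.0422 FPKM (log2 fold change 2.82 ± 0.40, adjusted p = 0.0106). Pal2, a lyase that completes the amidation of peptides, measured 6.43, 30.5 and 15.7 FPKM against 0.645, 0.368 and 0.407 FPKM (log2 fold change 3.75 ± 0.60, adjusted p = 0.0173). The carboxypeptidase silver (svr) measured 5.74, 10.6 and 11.8 FPKM against 1.03, 0.662 and 0.682 FPKM (log2 fold change 2.64 ± 0.43, adjusted p = 0.0174). Each of these 4 genes was apart between the groups. The calls of amon and svr were lost without SPEN-ISC replicate 2, and that of Pal2 without SPEN-EB replicate 1.

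These 4 were the called members among 10 tested of 28 listed genes of hormone processing and secretion, beside 0.562% of all genes tested, and the list's median log2 fold change was 0.70. Of the 4, 7B2, amon and Pal2 stayed under 1 FPKM in every SPEN-EB library and so entered the test through SPEN-ISC. Phm, which carries out the step of amidation before Pal2, measured 66.6, 72.7 and 64.8 FPKM in SPEN-ISC and 24.3, 24.6 and 43.7 FPKM in SPEN-EB, apart but not called (log2 fold change 0.87 ± 0.36, adjusted p = 0.643). At the other end stood unc-104, a kinesin that carries synaptic vesicle precursors, with 3.72, 1.56 and 33.0 FPKM against 70.9, 6.44 and 27.7 FPKM, overlapping between the groups (adjusted p = 0.962).

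Transcription factors of the enteroendocrine branch were higher in SPEN-ISC as well. The bHLH factor target of Poxn (tap, chromosome 3L, 17352782 to 17354911, plus strand) measured 6.04, 13.6 and 16.5 FPKM in SPEN-ISC and 0.0852, 0.0425 and 0.0396 FPKM in SPEN-EB (log2 fold change 4.22 ± 0.47, adjusted p = 0.00476). The proneural factor scute (sc, chromosome X, 290093 to 291530, plus strand) measured 6.79, 2.32 and 10.3 FPKM against 0.284, 0.252 and 0.293 FPKM. Both genes were apart, and the call of sc (log2 fold change 2.75 ± 0.42, adjusted p = 0.0173) was lost without SPEN-ISC replicate 1. They were the only 2 called of 14 tested in a list of 34 progenitor and lineage transcription factors (median log2 fold change 0.34), beside 0.562% of all genes tested. Both stayed under 1 FPKM in every SPEN-EB library and so entered the test through SPEN-ISC. Prospero (pros), the factor that defines enteroendocrine cells, was near the floor everywhere, with 0.0236, 0.0421 and 0.0934 FPKM in SPEN-ISC and 0.00206, 0 and 0 FPKM in SPEN-EB. Sox21a, a factor of progenitor differentiation, overlapped with 14.2, 6.59 and 55.6 FPKM against 23.7, 4.13 and 12.8 FPKM.

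The 14 enteroendocrine markers, which share members with the lists above, summed to 902, 4412 and 2877 FPKM in SPEN-ISC and 22.2, 15.9 and 9.95 FPKM in SPEN-EB. 7 of the 10 tested were called higher in SPEN-ISC, beside 0.562% of all genes tested. Most of these passed the filter on low values through SPEN-ISC. The genes tap, amon, 7B2 and CCHa1 stayed under 1 FPKM in every SPEN-EB library. Ast-C and Ast reached 1 FPKM in a single SPEN-EB library, at 1.35 and 1.43 FPKM, whereas CG13565 did so in all of them. The share called is therefore partly set by the filter. By contrast, pros was near 0 in all libraries and Mip, the precursor of myoinhibitory peptides, did not exceed 0.124 FPKM. The WT fractions showed a gap of the same kind, with 7035, 4185 and 3258 FPKM in WT-ISC and 22.0 and 31.2 FPKM in WT-EB. In sorted bulk RNA, fewer cells of a type and less RNA per cell cannot be told apart. Whether enteroendocrine cells or their precursors, positive for RFP but not GFP, were part of the ISC fraction was not tested.

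**Figure D2:**
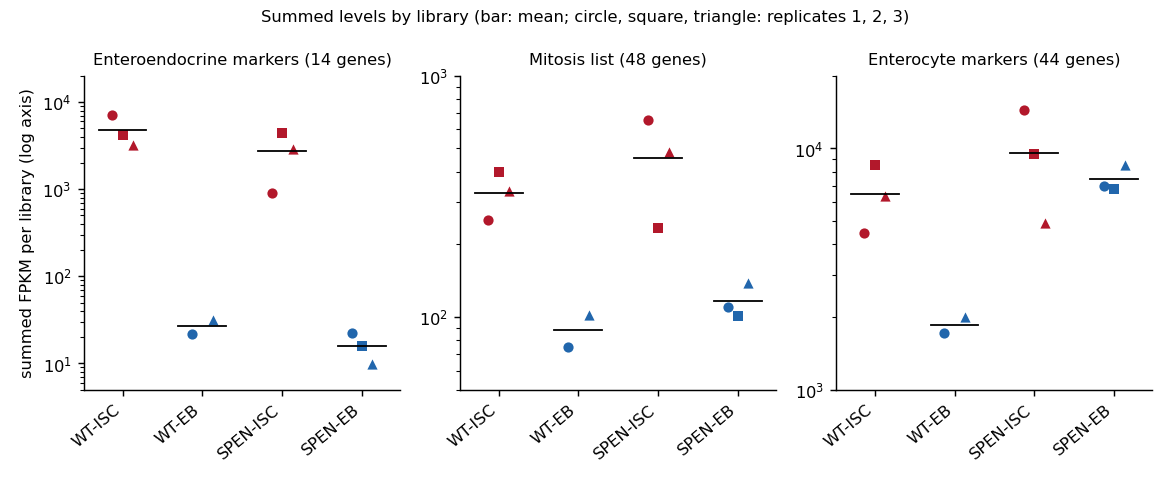
Summed FPKM per library on log axes for 14 enteroendocrine markers, 48 mitosis genes and 44 enterocyte markers (red, ISC fractions; blue, EB fractions; circle, square and triangle for replicates 1, 2 and 3; bar, group mean). Enteroendocrine and mitosis sums of the ISC fractions lie above those of the EB fractions in both genotypes, whereas the enterocyte sums of SPEN-ISC, 4909 to 14427 FPKM, span those of SPEN-EB, 6769 to 8560 FPKM.

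Genes of mitosis formed the second group higher in SPEN-ISC. The kinase cdc2 (Cdk1, chromosome 2L, 10384739 to 10386262, minus strand), which drives entry into mitosis, measured 39.8, 12.7 and 39.9 FPKM in SPEN-ISC and 3.98, 2.09 and 2.69 FPKM in SPEN-EB. SPEN-ISC replicate 2 was the lowest of its group, as for most mitosis genes below, and still above SPEN-EB (log2 fold change 2.77 ± 0.37, adjusted p = 0.00891). Its cyclins were higher too. Cyclin B (CycB) measured 11.8, 3.39 and 11.3 FPKM against 0.867, 0.289 and 1.16 FPKM (log2 fold change 2.54 ± 0.44, adjusted p = 0.0266). Cyclin A (CycA) measured 15.9, 6.41 and 16.7 FPKM against 2.28, 1.31 and 1.88 FPKM (log2 fold change 2.17 ± 0.35, adjusted p = 0.0173). Cks30A, a small subunit of the same kinase, measured 8.66, 3.64 and 8.14 FPKM against 0.436, 0.119 and 0.516 FPKM (log2 fold change 2.85 ± 0.39, adjusted p = 0.00891).

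The mitotic kinase polo measured 15.2, 3.94 and 16.7 FPKM in SPEN-ISC and 1.52, 1.16 and 1.30 FPKM in SPEN-EB (log2 fold change 2.27 ± 0.42, adjusted p = 0.0376). Borealin (borr), of the chromosomal passenger complex, measured 29.7, 9.05 and 13.9 FPKM against 1.64, 0.977 and 2.70 FPKM (log2 fold change 2.63 ± 0.41, adjusted p = 0.0173). Its partner Incenp measured 32.7, 13.8 and 22.9 FPKM against 4.58, 4.54 and 6.09 FPKM (log2 fold change 1.71 ± 0.32, adjusted p = 0.0376). The kinase of the same complex, Aurora B (ial), missed the threshold, with 69.0, 20.9 and 25.6 FPKM against 4.45, 5.67 and 8.31 FPKM (log2 fold change 2.09 ± 0.42, adjusted p = 0.057). The spindle checkpoint gene mad2, which shares 94 exonic bases with CG5537 on the other strand, measured 36.9, 15.2 and 23.1 FPKM against 3.99, 4.21 and 4.23 FPKM (log2 fold change 2.07 ± 0.33, adjusted p = 0.0173). The other called members were tumbleweed (tum), of the centralspindlin complex needed for cytokinesis, with a log2 fold change of 2.18 (adjusted p = 0.0277), and the securin pimples (pim), with 1.86 (adjusted p = 0.0452).

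Of 48 listed mitosis genes, 29 passed the filter, which Cks30A, for example, passed through SPEN-ISC alone. 28 of them had a positive fold change, 10 were called higher in SPEN-ISC and 0 in SPEN-EB, 21 had an unadjusted p under 0.05 and 20 were apart with SPEN-ISC higher. Over all genes tested these shares were 0.562% called higher in SPEN-ISC, 6.52% with an unadjusted p under 0.05 and 8.58% apart with SPEN-ISC higher. The median log2 fold change was 1.71, and 1.32 to 1.84 with any 1 library left out. The number called fell most without SPEN-ISC replicate 1, to 1 of 30 tested, and was 4 to 12 in the other fits that left out 1 library. Of the 6 such fits, cdc2 was called in 6, Cks30A and borr in 5, and CycB, mad2 and tum in 4. CycA and polo were called in 3, and Incenp and pim in 1. Among those not called were the kinetochore genes Spc25 (log2 fold change 1.94, adjusted p = 0.057) and Ndc80 (1.90, adjusted p = 0.0577) and the activator of the anaphase-promoting complex fizzy (fzy, 1.87, adjusted p = 0.0822). The single gene with a negative value was rap (fizzy-related), which promotes exit from the mitotic cycle, with 1.57, 5.11 and 5.64 FPKM in SPEN-ISC and 5.53, 2.45 and 3.71 FPKM in SPEN-EB, overlapping between the groups (log2 fold change -0.29, adjusted p = 0.998, and 0.29 without SPEN-ISC replicate 1). Summed over the 48 genes, mitosis transcripts came to 659, 234 and 482 FPKM in SPEN-ISC and 110, 101 and 139 FPKM in SPEN-EB.

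Genes of DNA replication differed less. All 40 tested of 50 listed had a positive fold change, beside 2853 of all 6225 genes tested. Without SPEN-ISC replicate 3, 38 of 40 were positive. Members at 1 FPKM numbered 42, 37 and 47 in SPEN-ISC and 38, 33 and 40 in SPEN-EB, so some could pass the filter through SPEN-ISC. The median was 0.75 on the log2 scale and 0.52 to 1.00 with any 1 library left out. None of the 40 was called by limma with all libraries (0.707% over all genes tested). An unadjusted p under 0.05 was found for 15 (6.52% over all genes tested), and 3 were called without SPEN-ISC replicate 3. PCNA (mus209), the sliding clamp, measured 161, 70.07 and 69.998 FPKM in SPEN-ISC and 19.2, 32.3 and 36.4 FPKM in SPEN-EB (log2 fold change 1.38, adjusted p = 0.285). The groups were apart, with SPEN-ISC replicate 1 the highest. Thymidylate synthase (Ts), which makes a DNA precursor, gave 1.61 on the same scale (adjusted p = 0.225) and the helicase subunit Mcm5 gave 1.44 (adjusted p = 0.244).

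**Figure D3:**
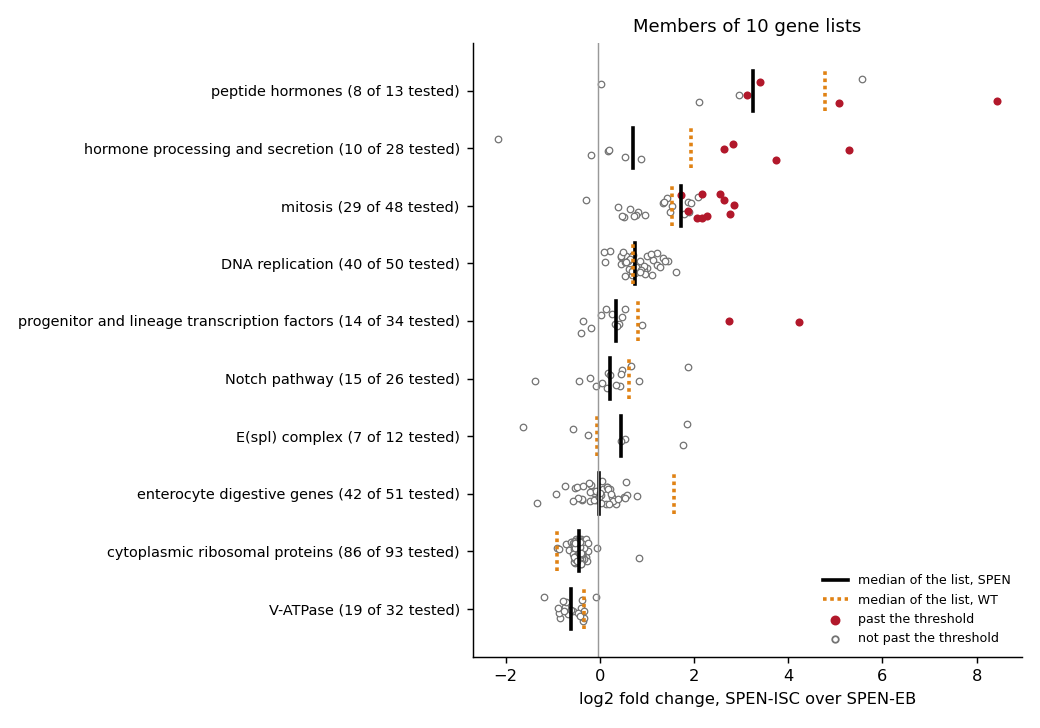
Log2 fold change of SPEN-ISC over SPEN-EB for each tested member of 10 gene lists (red, past the threshold; open, not past it; black bar, median of the list in the SPEN libraries; orange dotted bar, median of the same list in the WT libraries; grey line, median of all genes tested). Called members stand only in the lists of peptide hormones, hormone processing, mitosis and transcription factors, and the list of enterocyte digestive genes has a median of -0.01 in SPEN and 1.58 in WT.

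The Notch pathway did not hold a called gene among 15 tested of 26 listed (11 positive, median log2 fold change 0.22). Over all genes tested the share called was 0.707%, so a list this short could hold none at that share. After spdo, the largest values were those of rumi, a glycosyltransferase that acts on Notch, with 23.3, 10.4 and 10.1 FPKM against 4.72, 5.62 and 7.77 FPKM (log2 fold change 0.82, adjusted p = 0.8), and of fringe (fng), another glycosyltransferase of Notch, with 4.50, 1.02 and 8.89 FPKM against 6.64, 4.74 and 16.7 FPKM (log2 fold change -1.37, adjusted p = 0.566).

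Members of the E(spl) complex, the direct targets of Notch, went in different directions, and none of 7 tested passed (0.707% over all genes tested). The most abundant, E(spl)mbeta-HLH, measured 1831, 2178 and 2221 FPKM in SPEN-ISC and 1214, 1278 and 1137 FPKM in SPEN-EB, apart before scaling and with a log2 fold change of 0.46 ± 0.37 after it (adjusted p = 0.998). E(spl)m7-HLH was apart in the same direction at a low level, with 5.28, 6.498 and 6.64 FPKM against 1.20, 1.48 and 0.773 FPKM (log2 fold change 1.76, adjusted p = 0.104). E(spl)m8-HLH was so too, with 1.69, 2.30 and 1.17 FPKM against 0.205, 0 and 0 FPKM (adjusted p = 0.1). E(spl)mgamma-HLH was apart in the other direction, with 9.39, 7.01 and 5.86 FPKM in SPEN-ISC and 21.4, 13.3 and 24.4 FPKM in SPEN-EB (log2 fold change -1.63 ± 0.34, adjusted p = 0.058). E(spl)malpha-BFM, at 576 to 2342 FPKM, and E(spl)m3-HLH, at 332 to 528 FPKM, overlapped between the groups.

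A gene of the same locus that is not a bHLH factor was called. Kaz-m1 (chromosome 3R, 21840446 to 21842209, plus strand), which lies within the E(spl) complex and encodes a Kazal-type protease inhibitor, measured 47.7, 57.1 and 54.1 FPKM in SPEN-ISC and 194, 165 and 293 FPKM in SPEN-EB. Every SPEN-EB library was above every SPEN-ISC library (log2 fold change -2.30 ± 0.36, adjusted p = 0.0173), and the call was lost without SPEN-ISC replicate 1 or SPEN-EB replicate 3.

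The 9 genes higher in SPEN-EB were mostly known by an annotation number. CG15629 (chromosome 2L, 4813009 to 4815891, plus strand) measured 1.15, 0.743 and 0.446 FPKM in SPEN-ISC. In SPEN-EB it measured 19.8, 26.3 and 60.2 FPKM, a log2 fold change of -4.92 ± 0.43 (adjusted p = 0.000702). CG30090, now named Erasp (chromosome 2R, 11577348 to 11578519, plus strand), measured 36.2, 13.8 and 18.5 FPKM against 134, 404 and 588 FPKM (log2 fold change -4.20 ± 0.54, adjusted p = 0.00891). CG17145 was near the floor in SPEN-ISC, with 0.718, 0 and 0.414 FPKM, and measured 6.07, 6.47 and 16.2 FPKM in SPEN-EB (log2 fold change -3.74 ± 0.46, adjusted p = 0.0086). All 3 had groups far apart, with SPEN-EB replicate 3 the highest.

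CG30154 measured 8.05, 12.6 and 8.49 FPKM in SPEN-ISC and 35.2, 48.4 and 53.3 FPKM in SPEN-EB (log2 fold change -2.48 ± 0.40, adjusted p = 0.0173), and its call was lost without SPEN-ISC replicate 1. The remaining 4 were CG10184, CG11241, CG33514 and CG6178, a homologue of firefly luciferase with fatty acyl-CoA synthetase activity, with log2 fold changes of -2.04, -1.96, -1.90 and -1.63 in that order and adjusted p-values of 0.034, 0.0293, 0.0376 and 0.0452. Their groups were apart by less. CG6178, for example, measured 36.0, 19.7 and 32.7 FPKM against 63.3, 56.8 and 103 FPKM. Each of these 4 lost its call without SPEN-ISC replicate 1 and without SPEN-EB replicate 2 or 3, and CG11241, CG33514 and CG6178 share 295, 178 and 71 exonic bases with a gene on the other strand.

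Outside the hormone and mitosis lists, further genes were higher in SPEN-ISC. CG9021 (chromosome 2L, 5903359 to 5904674, minus strand) was abundant, with 224, 152 and 268 FPKM in SPEN-ISC and 20.5, 20.7 and 5.72 FPKM in SPEN-EB (log2 fold change 3.58 ± 0.52, adjusted p = 0.0131), and lost its call without SPEN-ISC replicate 1. The ABC transporter brown (bw), known for its role in eye pigment and sharing 461 of its 2732 exonic bases with the gene mi on the other strand, measured 17.1, 23.0 and 35.2 FPKM against 2.36, 2.06 and 0.756 FPKM (log2 fold change 3.26 ± 0.45, adjusted p = 0.00984). CG8965, now named rau and known as a component of receptor tyrosine kinase signalling, measured 23.3, 13.4 and 64.9 FPKM against 4.42, 1.11 and 1.49 FPKM (log2 fold change 3.20 ± 0.50, adjusted p = 0.0173), and lost its call without SPEN-ISC replicate 1. All these groups were apart.

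CG17778 (chromosome X, 388933 to 390402, plus strand), which ends just before svr (390504 to 403113) on the same strand, measured 32.9, 62.7 and 96.1 FPKM in SPEN-ISC and 4.09, 5.06 and 6.03 FPKM in SPEN-EB (log2 fold change 3.12 ± 0.42, adjusted p = 0.00891). CG43218 measured 80.0, 34.99 and 57.1 FPKM against 4.32, 6.64 and 8.53 FPKM (log2 fold change 2.71 ± 0.35, adjusted p = 0.00891). Pen, an importin alpha, measured 30.5, 10.8 and 21.8 FPKM against 2.05, 1.64 and 3.07 FPKM (log2 fold change 2.60 ± 0.35, adjusted p = 0.00891). SPEN-ISC replicate 2 was the lowest of its group for the last 2 genes and the middle one for CG17778.

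The microRNA gene mir-997 (chromosome 3R, 15152676 to 15152890, minus strand) lies beside Dl (15128453 to 15151935) on the same strand. It held 72, 8 and 33 counts in SPEN-ISC and 0, 0 and 1 count in SPEN-EB, which are few (adjusted p = 0.0321), and its call was lost without SPEN-ISC replicate 1 or SPEN-EB replicate 2 or 3. The other genes higher in SPEN-ISC were sip2, the cuticle protein gene Cpr51A, CG4577, CG11120 (Mink), NPFR1, the receptor of npf, the extended synaptotagmin Esyt2, CG1943 and CG14989, with log2 fold changes of 1.97 to 2.48. Of these, NPFR1 and Esyt2 were called in 0 of the 6 fits that left out 1 library, CG14989 in 1, CG4577 in 2, CG11120 in 3, Cpr51A and CG1943 in 4 and sip2 in 5.

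The same contrast in the WT libraries, which share no library with it, gave 163 genes of 6128 (2.66%), 130 higher in WT-ISC (2.12%) and 33 in WT-EB. This count rested on single libraries, with 19 genes without WT-EB replicate 1, 31 without WT-EB replicate 3, 271 without WT-ISC replicate 3 and 1600.0 without WT-ISC replicate 1. Of the 6128 genes tested in WT, 821 had an unadjusted p under 0.05. Of the 44 genes called in the SPEN libraries, 43 were also tested in WT, and all 43 had the same sign there and an unadjusted p under 0.05. 38 were called in both, which is 88.4% of the 43 SPEN-called genes and 26.4% of the 144 WT-called genes that were tested in the SPEN libraries. Without 1 WT library, 12 to 41 SPEN-called genes were called in both, the fewest without WT-EB replicate 1 and the most without WT-ISC replicate 1. With all WT libraries, only CG11120, CycA, NPFR1, pim and CG6178 were called in SPEN but not in WT, and mir-997 was not tested in WT. CycA had a log2 fold change of 2.17 in SPEN and 1.502 in WT, where its adjusted p was 0.135. Of the 144 WT-called genes, 131 had the same sign in SPEN and 96 an unadjusted p under 0.05. Over all 5905 genes tested in both genotypes, 70.1% had the same sign, and the 2 sets of log2 fold changes had a Pearson correlation of 0.67 across genes, which do not count as replicates.

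Of the 38 genes called in both, 26 had log2 fold changes within 0.5 of each other and 8 differed by more than 1. The absolute value was larger in WT for 31 of the 38. CG13565 had a log2 fold change of 8.44 in SPEN and 8.20 in WT, tap 4.22 and 4.52, cdc2 2.77 and 2.83, CG15629 -4.92 and -5.46, and Kaz-m1 -2.30 and -1.93. The 8 that differed more were CG14989 (1.97 in SPEN and 4.74 in WT), Ast-C (5.08 and 6.75), Pal2 (3.75 and 5.36), CCHa1 (3.39 and 4.79), CG9021 (3.58 and 2.31), CG4577 (2.45 and 3.47), CG30090 (-4.20 and -5.53) and CG17145 (-3.74 and -4.83). None of these differences passed the interaction test by limma. Over the genes called in WT, and thus chosen for their size there, the median log2 fold change of those higher in ISCs was 2.24 in WT and 1.48 in SPEN, and of those higher in EBs -1.98 in WT and -1.67 in SPEN. 106 of them were not called in SPEN, which does not show that they differ between genotypes.

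**Figure D4:**
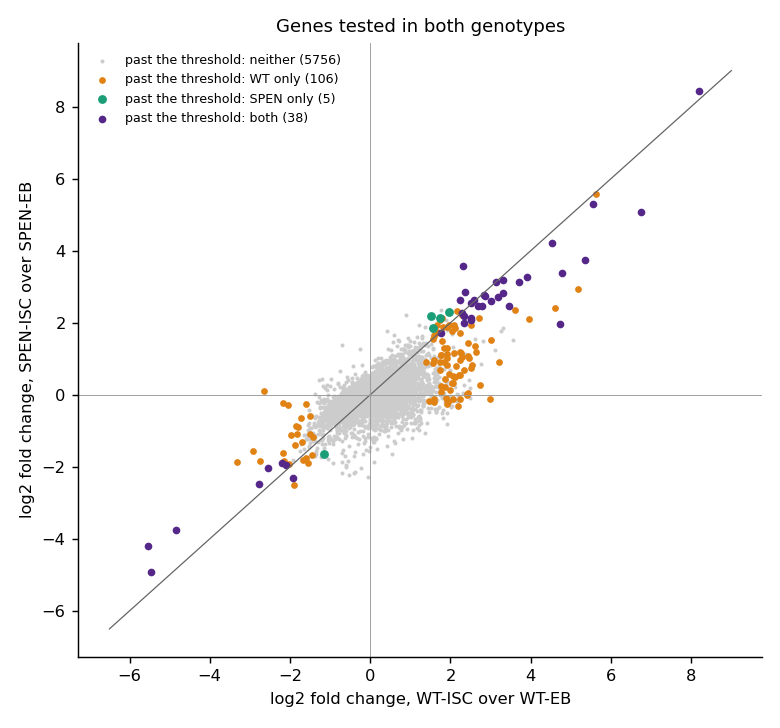
Log2 fold change of ISCs over EBs in the SPEN libraries (vertical) against that in the WT libraries (horizontal) for the 5905 genes tested in both, coloured by the comparison in which they passed the threshold, with a line of equal values. The 38 genes called in both run along the line from CG30090 and CG15629 at the lower left to CG13565 at the upper right. Of these, 31 have the larger absolute value in WT, and 8 are more than 1 log2 unit away from equal values. Many of the 106 genes called in WT only lie below the line.

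Whether the difference between cell types depends on genotype was tested directly as an interaction over all 11 libraries. None of 7027 genes (0%) passed by limma, 124 (1.76%) had an unadjusted p under 0.05, and the smallest adjusted p was 0.565. edgeR and DESeq2 on summed bin counts called 0 and 1 gene. The genes with the smallest p-values are given as values. Ir85a, an ionotropic receptor gene, measured 5.58, 8.03 and 7.15 FPKM in WT-ISC and 0.903, 0.661 and 1.33 FPKM in SPEN-ISC, while it was at 0 in both WT-EB libraries and did not exceed 0.0464 FPKM in SPEN-EB (interaction -2.53 ± 0.47 on the log2 scale, adjusted p = 0.565). CG14989 measured 24.6, 30.8 and 8.34 FPKM in WT-ISC and 3.63, 3.25 and 4.84 FPKM in SPEN-ISC, against 0.0739 and 0.0606 FPKM in WT-EB and 0.420, 0.357 and 0.622 FPKM in SPEN-EB (interaction -2.96 ± 0.67, adjusted p = 0.987). It was the gene that DESeq2 called (adjusted p = 0.00038).

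Other leading values of the interaction came from the EB side. CG4302, which encodes a UDP-glycosyltransferase, measured 23.7 and 39.2 FPKM in WT-EB and 4.65, 9.48 and 8.58 FPKM in SPEN-EB, while the ISC fractions ranged from 5.93 to 10.9 FPKM (interaction 2.91 ± 0.57, adjusted p = 0.565). Ance, a peptidase related to angiotensin-converting enzyme, measured 30.8 and 22.9 FPKM in WT-EB and 9.95, 11.6 and 16.6 FPKM in SPEN-EB (interaction 2.12 ± 0.49, adjusted p = 0.987). In the SPEN libraries CG4302 and Ance overlapped between cell types, with log2 fold changes of 0.11 and -0.22, whereas in WT they were called higher in EBs, at -2.64 and -2.17. The other genes of this kind were Jon99Ciii, Sodh-1 and veil, with negative interactions of -2.25, -2.32 and -1.80, and IM14, CG30283 and CG10933, with positive ones of 1.96, 1.68 and 1.60. All 6 had an adjusted p of 0.987.

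Genes of digestion and absorption, made by enterocytes, gave different values in the SPEN and WT comparisons. The list held 51 genes, of which 40 encode digestive enzymes and the other 11 are sterol-binding Npc2 genes, myosins and the transcription factor gene nub. Of these 51, 42 were tested in SPEN and 20 had a positive fold change. None of the 42 was called (0.707% over all genes tested), 1 had an unadjusted p under 0.05 and the median log2 fold change was -0.01. That median lay between -0.28 and 0.46 with any 1 library left out. In WT, 42 of 43 tested were positive, 8 were called higher in WT-ISC (2.12% over all genes tested) and the median was 1.58. For the 40 enzyme genes alone, 18 of 36 were positive in SPEN with a median of 0.0063, and 36 of 36 in WT with a median of 1.64. The interaction was negative for 42 of 43, with a median of -1.23, beside 3239 of all 7027 genes and a median of 0.06. 8 of the 43 had an unadjusted interaction p under 0.05 (1.76% over all genes tested) and none passed after adjustment, and the Jonah and trypsin genes are close paralogues whose reads cannot be fully told apart.

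The Jonah protease gene Jon99Ciii measured 2329, 987 and 561 FPKM in SPEN-ISC and 882, 793 and 974 FPKM in SPEN-EB. SPEN-ISC replicate 1 was the highest and replicate 3 the lowest of all 6 (log2 fold change -0.01, and 2.40 in WT, where WT-EB measured 95.9 and 115 FPKM). alphaTry, a trypsin gene, measured 2353, 2894 and 1052 FPKM against 1590, 1683 and 1493 FPKM (log2 fold change -0.04). The maltase gene Mal-A2 was apart, with 14.6, 16.2 and 19.0 FPKM against 6.60, 8.79 and 11.96 FPKM, and had a log2 fold change of 0.56 in SPEN and 2.22 in WT. Npc2a, a sterol-binding protein gene, measured 745, 469 and 416 FPKM against 570, 792 and 1142 FPKM, overlapping between the groups (log2 fold change -0.93, adjusted p = 0.725).

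The 44 enterocyte markers summed to 14427, 9457 and 4909 FPKM in SPEN-ISC and 7021, 6769 and 8560.0 FPKM in SPEN-EB, and to 4451, 8578 and 6372 FPKM in WT-ISC and 1711 and 2001 FPKM in WT-EB. All 3 SPEN-EB libraries were thus above both WT-EB libraries before scaling, while the ISC fractions of the 2 genotypes overlapped. Scaled over all 11 libraries, the gap was smaller, at 6425, 7851 and 7163 in SPEN-EB against 3257 and 2945 in WT-EB. The ISC fractions still overlapped. Enterocytes are polyploid, and the sort took diploid cells. Whether enterocyte RNA was part of these values was not tested. Markers of visceral muscle summed to 0.304 to 7.41 FPKM, of haemocytes and fat body to 0.274 to 5.30 FPKM and of germline to at most 0.533 FPKM in the SPEN libraries, and those of Malpighian tubules to at most 0.200 FPKM.

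Housekeeping lists showed small differences with one sign. Of 86 tested genes of cytoplasmic ribosomal proteins, 1 had a positive fold change and none was called, with a median of -0.44 on the log2 scale (-0.73 to -0.21 with any 1 library left out). All 19 tested subunits of the V-ATPase, the proton pump, were negative, with a median of -0.61, and none was called. Without scaling of the libraries the median over all genes moved from -0.04 to 0.25, a shift of the whole scale. The medians of these lists were then -0.12 for ribosomal proteins, with 8 of 86 positive, and -0.29 for the V-ATPase, with 1 of 19 positive. The lists of EGFR signalling (12 tested, median 0.23), JAK-STAT signalling (9, 0.03), Imd immunity (20, -0.10), septate junctions (12, -0.24), heat shock (21, 0.32) and m6A methylation (8, 0.17) held no called gene. With 0.707% of all genes tested called, lists of these sizes could hold none at that share. The cytokine gene upd2, a ligand of JAK-STAT signalling, was apart, with 8.29, 5.57 and 9.72 FPKM against 3.45, 1.182 and 2.52 FPKM (log2 fold change 1.32, adjusted p = 0.214).

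Exon usage was compared as the log2 ratio of the counts in a bin to those in all other bins of the gene. Of 27423 bins in 6032 genes, 1 (0.00365%) differed at an adjusted p under 0.05, and 625 (2.28%) had an unadjusted p under 0.05. This bin was E002 of CG3225 (chromosome 2L, 4815916 to 4817663, minus strand), which took 66.1%, 61.1% and 63.4% of the counts of its gene in SPEN-ISC and 17.8%, 18.0% and 18.1% in SPEN-EB (log2 ratio 3.03 ± 0.25, adjusted p = 0.0097). The groups were far apart, but the call was lost in 6 of 13 alternatives: with edgeR's diffSpliceDGE, limma's diffSplice or the replicate block, and without SPEN-ISC replicate 1, SPEN-EB replicate 2 or SPEN-EB replicate 3. The counts of E002 itself were low and overlapped, at 76, 11 and 59 in SPEN-ISC and 30, 30 and 85 in SPEN-EB.

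The neighbouring bin E001 of CG3225 (4815613 to 4815857, minus strand) carried the other side of this ratio. It held 13, 6 and 4 counts in SPEN-ISC and 131, 125 and 360 counts in SPEN-EB (log2 ratio -4.49 ± 0.52, adjusted p = 0.0798). This bin lies within the span of CG15629, the gene with the largest difference towards SPEN-EB, which runs on the opposite strand and shares 189 exonic bases with CG3225. CG15629 held 64, 34 and 23 counts in SPEN-ISC and 911, 1113 and 2834 counts in SPEN-EB, so the counts of both were high in the same libraries. In WT, E001 held 5, 3 and 4 counts in ISCs and 151 and 96 counts in EBs. The part of reads from CG15629 in the counts of E001 was not tested.

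**Figure D5:**
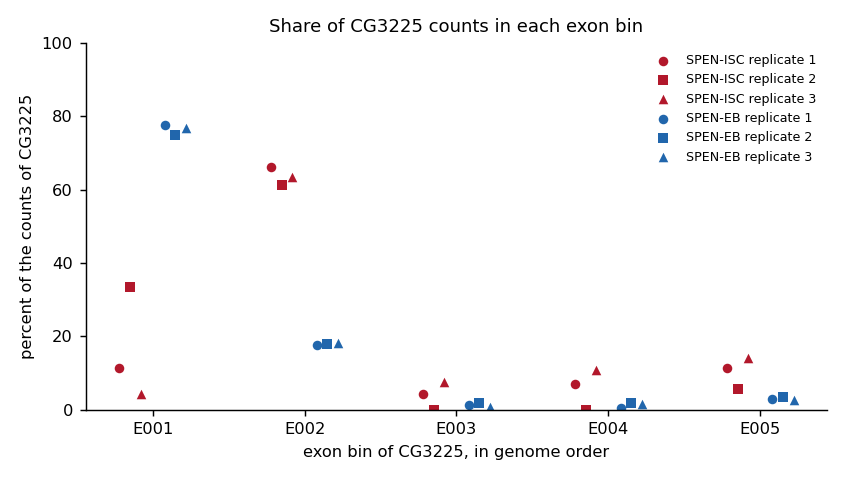
Percent of the counts of CG3225 that fell in each of its 5 exon bins, in each SPEN library (red, SPEN-ISC; blue, SPEN-EB; circle, square and triangle for replicates 1, 2 and 3). Bin E002 takes 61.1% to 66.1% in SPEN-ISC and 17.8% to 18.1% in SPEN-EB, and bin E001 takes 4.30% to 33.3% and 74.9% to 77.5%.

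No other bin passed. In the fatty acid desaturase gene desat1, bin E002 took 1.59%, 1.36% and 1.57% of the counts in SPEN-ISC and 3.97%, 4.20% and 3.53% in SPEN-EB (log2 ratio -1.36 ± 0.16, adjusted p = 0.0798). In svr, bin E001, the first of the gene, took 2.49%, 2.03% and 3.55% against 15.2%, 8.97% and 9.43% (log2 ratio -2.26 ± 0.35, adjusted p = 0.47). Its counts were 32, 45 and 90 in SPEN-ISC and 32, 13 and 15 in SPEN-EB, while the whole gene was called higher in SPEN-ISC. In HdacX, a histone deacetylase gene, bin E001 took 68.3%, 57.4% and 67.3% against 39.4%, 35.3% and 33.7% (log2 ratio 1.77 ± 0.24, adjusted p = 0.204). The groups of these 3 bins were apart. The next smallest adjusted p-values, 0.546 to 0.575, belonged to bins of CG9752, RpS15Aa and SAK, the kinase of centriole duplication, with positive ratios, and of TM4SF and cort, with negative ones.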

How the data were processed

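Paired-end stranded libraries were made from RNA of sorted cells and sequenced on an Illumina HiSeq. The methods name oligo-dT capture and the labels a Ribo-Zero kit, so the enrichment is uncertain. The authors aligned reads with TopHat2 (version 2.0.6 in the submitters' processing notes) and counted the alignments per BDGP5 gene and per exon bin, with a library mode stated to use strand. The deposited gene table holds FPKM per library, and the deposited exon table holds read counts per bin, in which a read spanning bins is counted in each. The exon table also holds deposited mean signal columns, and coordinates and widths as other values, of which the means were not used. The authors' tables of fold changes and p-values, with 16 per-sample columns, were not used, and none of them compares SPEN-ISC with SPEN-EB. The study left out 1 WT-EB library after principal component analysis, which makes the WT-EB spread a selected one.

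FPKM were scaled by edgeR's TMM (edgeR 4.0.16), and log2(FPKM + 0.5) was tested with limma 3.58.1 in R 4.3.3 (trend and robust options). Genes needed 1 FPKM in a number of libraries equal to the smaller group. P-values were two-sided and adjusted after Benjamini and Hochberg over all tested genes (threshold 0.05). An unweighted trimmed mean was the first scaling tried. It was run on the data before TMM was chosen and is kept as an alternative. The SPEN comparison used its own 6 libraries without pairing, and the interaction all 11. The paper describes sorting both cell types simultaneously. An exact permutation test of 3 against 3 libraries cannot go below 0.1 and was not used. For exon usage, bins needed 10 counts at the median depth in 3 libraries and 15 in total. An offset of 0.5 and precision weights were used in limma, since DEXSeq, used in the study, was not at hand. The tests were tested on simulated data.

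Named genes were the 15 with the largest log2 fold change in each direction among called genes with groups apart, the 5 called genes of highest mean FPKM in each direction, the 5 smallest adjusted p-values in each direction for the interaction and for exon bins, spen, and members of the marker and gene lists. The remaining called genes (mir-997, Pen, sip2, Cpr51A, CG4577, CG11120, NPFR1, Esyt2 and CG1943) were added after their values were seen, as were CR43258, CG1275, scb and NaCP60E in the alternatives. The comparison, members and lists were chosen with earlier results of these data known. The counts give precision for sampling only, and FPKM near 0 rest on few reads. No sequence is printed, as none was in the reference tables used here. Alternatives changed the pseudocount, filter, scaling, tool, libraries, covariate or replicate block.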

Additional observations from a re-analysis of the deposited data

How the results depend on the processing

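The 44 genes that differed between SPEN-ISC and SPEN-EB became 2 without a filter on low values (CG13565 and CG15629), 71 without scaling, 20 with edgeR and 210 with DESeq2 on bin counts summed per gene, 76 with all 11 libraries in the fit and 69 with the 3' to 5' coverage ratio as a covariate. They were 41 with the unweighted trimmed mean. Leaving out 1 library gave 15 to 65. 40 of the 44 were among the 71, all 20 of edgeR's were among the 44, and all 44 were among DESeq2's 210. The WT count of 163 became 22 without the filter, 97 without scaling, 106 with the unweighted trimmed mean, 383 with DESeq2 and 19 to 1600 with 1 library left out, the last without WT-ISC replicate 1. The interaction gave 1 gene without the filter (CR43258, adjusted p = 0.0418) and 1 with DESeq2 (CG14989). For exon usage, the single bin became 3 without the minimum of 10 counts, 0 with limma's diffSplice, 7 with the coverage covariate (in scb, svr, CG3225, mad2, NaCP60E and desat1) and 0 to 5 with 1 library left out, 0 of them without SPEN-ISC replicate 1 or SPEN-EB replicate 2 or 3. edgeR's diffSpliceDGE also called 1 bin, which was E007 of CG1275 (adjusted p = 0.0176) and not the bin of CG3225. The causes were not tested.

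The libraries most alike did not always share a replicate number. Correlations of deviations from means of 3 libraries cannot show whether samples were paired. Libraries of the same number had correlations of -0.613, 0.618 and -0.155 between their deviations from the group means, and 1 of 3 SPEN-ISC libraries, replicate 2, correlated best with its own number. SPEN-ISC replicate 1 correlated best with SPEN-EB replicate 3 (0.703), and SPEN-ISC replicate 3 with SPEN-EB replicate 1 (0.673). In log2 FPKM these 3 matches correlated at 0.9842, 0.9821 and 0.9771 in order of SPEN-ISC replicate, and SPEN-ISC libraries with each other at 0.9554 to 0.9725. The tests were unpaired and the block followed replicate numbers. Whether matched libraries shared guts or a batch was not tested. With the replicate block, 51 genes were called in SPEN and 360 in WT, and 0 exon bins, while the block with the unweighted trimmed mean gave 2 genes (CG13565 and CG15629). TMM was taken as the scaling after both it and the unweighted trimmed mean had been run, and the covariate was added after the data were seen.

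Directions turned for 10 named genes, none of them called, with log2 fold changes of -0.29 to 0.35. Without scaling, the log2 fold change became 0.31 for Jon99Ciii, 0.28 for alphaTry, 0.091 for Ance and 0.064 for E(spl)m3-HLH. With the unweighted trimmed mean, with or without the replicate block, it became 0.059 for Jon99Ciii and 0.033 for alphaTry. With edgeR these 2 became 0.23 and 0.19, with DESeq2 0.24 and 0.19, and with the covariate 0.057 and 0.010. Jon99Ciii became 0.016 with all 11 libraries. With 1 library left out, the ranges were -0.55 to 0.89 for esg, -0.46 to 0.63 for Jon99Ciii, -0.55 to 0.57 for alphaTry, -0.23 to 0.42 for CG4302, -0.16 to 0.43 for veil, -0.70 to 0.29 for rap, -0.53 to 0.043 for E(spl)m3-HLH, -0.30 to 0.86 for Sox21a and -1.09 to 0.63 for Nplp2. Genes at 1 FPKM in fewer than 3 libraries, such as Dl, were not tested.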
